A study of Oryza sativa with 8 samples.

Results

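Phenylalanine ammonia-lyase (PAL) and cinnamate 4-hydroxylase (C4H) catalyse the first steps of the phenylpropanoid pathway, and the transcripts of 10 rice loci listed for these enzymes are described here, 8 for PAL and 2 for C4H, out of 55801 loci in the deposited table. The members were taken by locus identifier. Neither the deposited table nor the RefSeq gene table used here pairs these identifiers with names, so the loci are called by identifier. Their assignment to PAL or C4H was recalled from published identifiers without a source at hand, and was not checked here. LOC_Os02g41630, LOC_Os02g41650, LOC_Os02g41670 and LOC_Os02g41680 carry neighbouring identifiers on chromosome 2, and LOC_Os04g43760 and LOC_Os04g43800 on chromosome 4. The other PAL loci are LOC_Os05g35290 and LOC_Os11g48110, and the C4H loci are LOC_Os05g25640 and LOC_Os02g26810. No sequence of these loci is shown.

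PAL removes the amino group of phenylalanine and releases cinnamate, which draws carbon from protein building into phenolic compounds. C4H, a cytochrome P450 of the endoplasmic reticulum, hydroxylates cinnamate to p-coumarate, and 4-coumarate:CoA ligase (4CL) then activates the product. In grass roots this route feeds lignin and the phenolic part of suberin in xylem, endodermis and outer cell layers, wall-bound ferulate and coumarate, flavonoids, and phenolics made under attack.

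The libraries are poly(A) RNA-seq of rice (Oryza sativa) roots in 4 groups of 2 replicates. D4_CK and D6_CK are labelled normal, and D4_100X and D6_100X are labelled 100X CD, where the series title names carbon dots, nanometre-sized carbon particles, as a seed priming agent. What D4, D6 and 100X stand for is not spelled out in the labels, which give no cultivar and do not say whether replicates came from separate plants or cultures, so p-values measure only the spread between these libraries, which may be technical. Root identity was checked with marker loci. NIP2-1, the silicon influx channel gene of roots, lay between 175 and 805 FPKM, and Lsi2, a silicon efflux transporter gene, between 89.9 and 337. Of the other 2 root loci listed, LOC_Os02g44310 lay between 981 and 4119 FPKM, but LOC_Os02g37190 was at 0.393 to 1.01 FPKM in the D4 libraries, no higher than some green loci, and at 5.51 to 25.4 in the D6 libraries. Of 5 green shoot loci, 4 stayed at or below 1.98 FPKM, and the other reached 7.68 FPKM.

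Values are FPKM as computed by the authors, and 1 feature of the table bears on every level given here. Multiplied by a gene length and by the common denominator, nearly every FPKM value gives a whole number, and after sorting, these whole numbers were almost the same list in all 8 libraries. Of the 50 highest values in each library, 48 were shared by all 8, and over the 20000 highest ranks the libraries differed at a given rank by a median of 0.21%. This is the pattern that quantile normalisation of counts leaves, a step that no source used here records. The FPKM denominator was the same in all 8 libraries within 0.0098%, so it is not a depth, and the depth of each library is unknown. A locus shows a difference between libraries only where its rank among all loci differs.

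**Figure D1:**
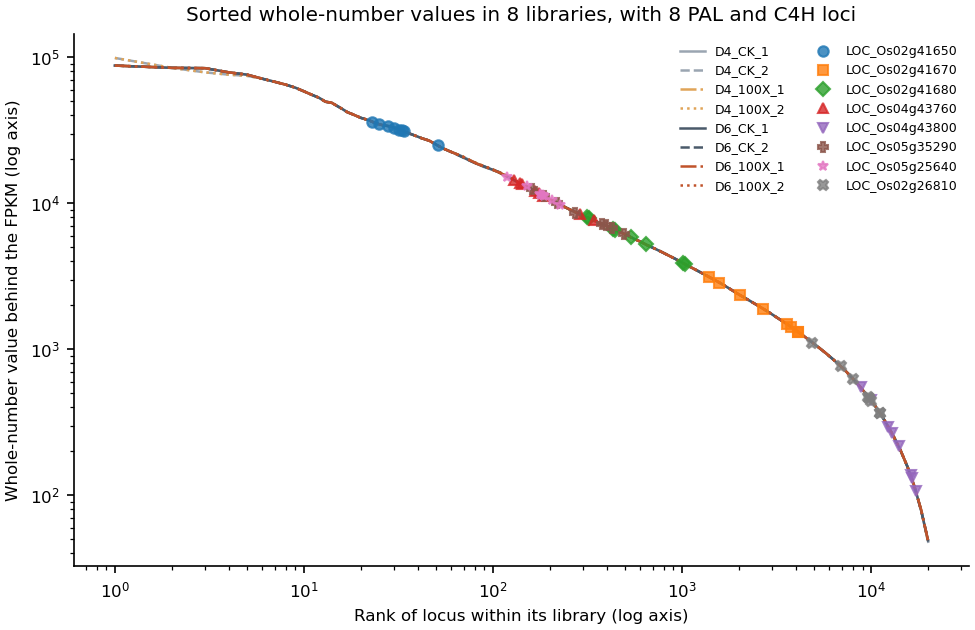
Whole-number value behind the FPKM (log axis) against the rank of the locus in its library (log axis). Lines are the 8 libraries and symbols are 8 PAL and C4H loci in each library. The lines lie on each other beyond the highest few ranks, and the members occupy ranks from 23 (LOC_Os02g41650) to 17218 (LOC_Os04g43800).

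LOC_Os02g41630 was the most abundant member and carries no information on the comparisons. Its FPKM was 2381.51, 2381.54, 2381.56, 2381.59, 2381.50, 2381.36, 2381.56 and 2381.46 in D4_CK, D4_100X, D6_CK and D6_100X, replicate 1 before replicate 2. The deposited values span 0.0098%, which is also the span of the denominators, and after the denominators are taken out the span is 4.4e-08%. No other locus with a whole-number value of at least 100 had the same one in all 8 libraries, and among the 1071 loci with a mean of at least 100 FPKM the next smallest span was 5.86%. The locus ranked 7 of all loci by mean FPKM. With any length above 1.82 kb, and the PAL loci whose lengths could be recovered measured 2514 to 3238 bp, it would hold the highest whole-number value in every library. Under quantile normalisation the top locus of each library gets the same value, so neither stability nor change of this PAL transcript can be read from the table. LOC_Os11g48110 was listed at 0 in all 8 libraries.

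The other 8 members, 6 for PAL and 2 for C4H, differed between libraries, and all 8 reached 1 FPKM in at least 2 libraries, as the test required. Levels per length spanned a wide range. LOC_Os02g41650 was the highest, with 432 and 446 FPKM in D4_CK, 490 and 422 in D4_100X, 470 and 426 in D6_CK, and 456 and 338 in D6_100X. The groups overlapped, and the D6_100X replicate 2 library was the lowest. Its rank lay between 23 and 51 of all loci, where neighbouring ranks are far apart in value, so its level moves in coarse steps.

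LOC_Os05g25640, the main C4H transcript, came next, with 311 and 272 FPKM in D4_CK, 361 and 276 in D4_100X, 270 and 267 in D6_CK, and 249 and 232 in D6_100X. It made up 93.7% to 97.5% of the summed level of the 2 C4H members. LOC_Os02g41650 was above it in all 8 libraries. The following members in order of mean level were LOC_Os04g43760 (199 FPKM over all libraries), LOC_Os05g35290 (151 FPKM), LOC_Os02g41680 (103 FPKM), LOC_Os02g41670 (33.3 FPKM), the second C4H locus LOC_Os02g26810 (12.7 FPKM) and LOC_Os04g43800 (4.43 FPKM). The ranges of LOC_Os04g43760 and LOC_Os05g35290 overlapped, as did those of LOC_Os05g35290 and LOC_Os02g41680, and of LOC_Os02g41650 and LOC_Os05g25640. PAL copies resemble each other, and how reads that map to several copies were counted is not given in the sources used here, so the split of reads between PAL loci is uncertain.

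**Figure D2:**
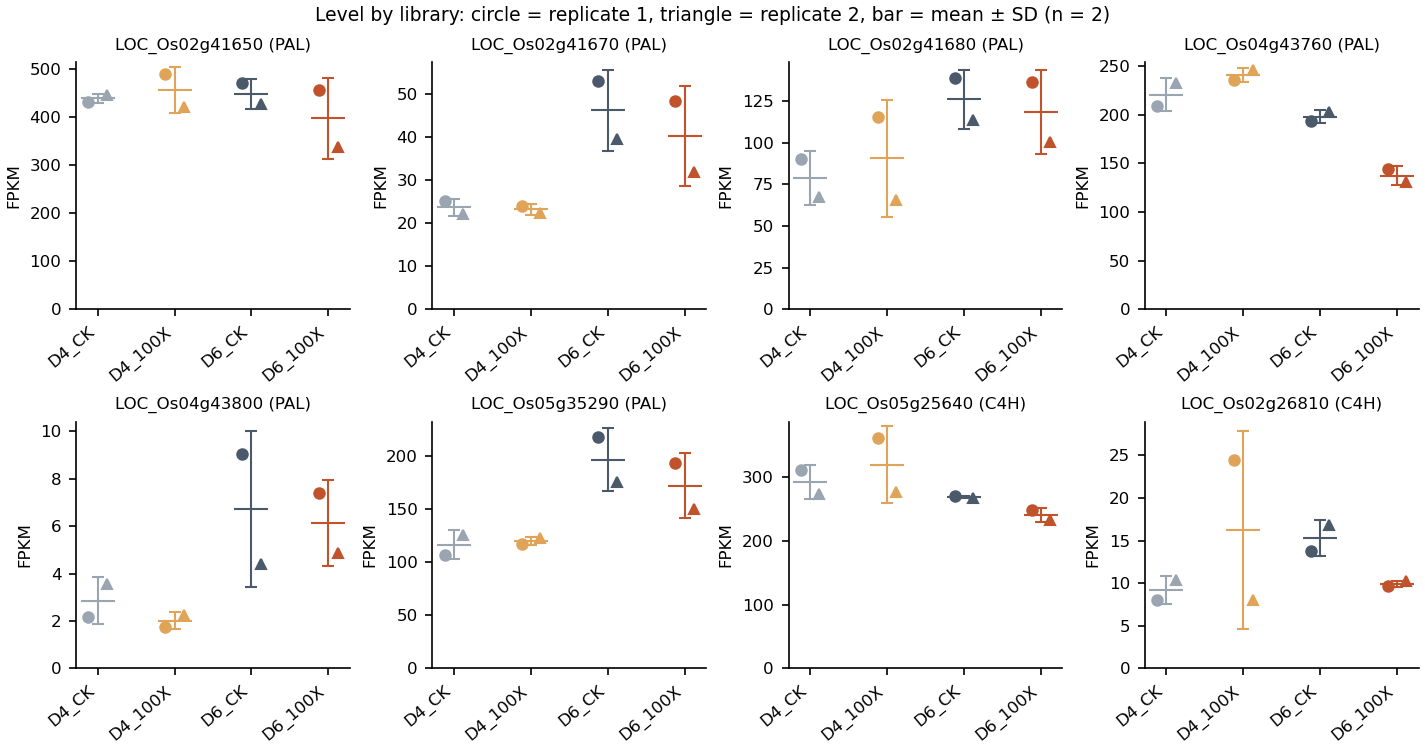
FPKM of the 8 members whose values differ between libraries, by group, with replicate 1 as a circle, replicate 2 as a triangle and the mean ± SD (n = 2) as bars. LOC_Os02g41670, LOC_Os04g43800 and LOC_Os05g35290 are higher in all D6 than in all D4 libraries, and LOC_Os04g43760 is lowest in the D6_100X libraries at 144 and 131 FPKM.

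The comparison of D6 with D4 asked how the entry step differs between the samplings, in each treatment. The PAL loci called did not all move one way. In the controls LOC_Os02g41670 and LOC_Os05g35290 rose, and with carbon dots LOC_Os02g41670 and LOC_Os04g43800 rose while LOC_Os04g43760 fell. No C4H locus passed the test in either comparison with all libraries fitted as planned. In bulk roots, fewer cells of a type and less RNA per cell cannot be told apart.

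LOC_Os02g41670 stood at 25.1 and 22.2 FPKM in D4_CK and 24.1 and 22.3 in D4_100X, against 52.9 and 39.6 in D6_CK and 48.4 and 31.9 in D6_100X. Every D6 library was above every D4 library. The log2 fold change on the log2(FPKM + 1) scale, used throughout, was 0.93 ± 0.22 (SE, limma adjusted p = 0.0438) in the controls and 0.74 ± 0.22 (adjusted p = 0.0421) with carbon dots. Calls were counted over all 22794 tested loci, of which 10.1% passed in the controls and 29.8% with carbon dots. Among the 8 members 2 passed in the controls, both higher, and 3 with carbon dots, 2 higher and 1 lower. Unadjusted, 3 and 5 members were under 0.05, against 27.8% and 42.3% of loci. The background was 5.42% higher and 4.72% lower in the controls, and 14.5% higher and 15.3% lower with carbon dots.

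LOC_Os05g35290 stood at 107 and 126 FPKM in D4_CK and 117 and 123 in D4_100X, and at 218 and 176 in D6_CK and 194 and 150 in D6_100X. Again no D6 library fell to the D4 level. Its log2 fold change was 0.75 ± 0.17 (limma adjusted p = 0.039) in the controls. With carbon dots it was 0.51 ± 0.17 with a 95% interval of 0.11 to 0.90, and it missed the threshold (adjusted p = 0.0594). The difference between those fold changes, which is also the test of whether the carbon dot effect differs between D4 and D6, was -0.24 ± 0.23 (adjusted p = 0.814).

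LOC_Os04g43800 is the least abundant detected PAL locus. It was at 2.16 and 3.56 FPKM in D4_CK, 1.76 and 2.27 in D4_100X, 9.03 and 4.38 in D6_CK, and 7.40 and 4.86 in D6_100X. The D6 libraries were all above the D4 libraries, with the wider spread in the controls. The log2 fold change was 1.22 ± 0.34 (limma adjusted p = 0.0364) with carbon dots and 0.95 ± 0.34 (adjusted p = 0.127) in the controls.

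LOC_Os04g43760 went the other way. It was at 209 and 233 FPKM in D4_CK and 236 and 246 in D4_100X, and at 194 and 203 in D6_CK and 144 and 131 in D6_100X. The D6_CK libraries were below the D4_CK libraries by -0.15 ± 0.10 (95% interval -0.40 to 0.09, limma adjusted p = 0.38), which did not pass. With carbon dots it fell, with a log2 fold change of -0.81 ± 0.10 (adjusted p = 0.00261), and this call held under all 17 alternative settings reported, with adjusted p between 0.00169 and 0.0273. It was the only member call that did so.

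The calls of the rising loci rest on few libraries. In the controls the adjusted p of LOC_Os02g41670 was 0.123, 0.132, 0.242 and 0.0789 without D4_CK replicate 1, D4_CK replicate 2, D6_CK replicate 1 and D6_CK replicate 2, and that of LOC_Os05g35290 was 0.16, 0.0643, 0.226 and 0.0763. LOC_Os05g35290 also missed the threshold narrowly without either D6_100X library, at 0.0511 and 0.0509. With carbon dots LOC_Os02g41670 was lost without D4_CK replicate 1 (0.0573), D4_CK replicate 2 (0.057), D4_100X replicate 1 (0.0838), D4_100X replicate 2 (0.13) or D6_100X replicate 1 (0.186). LOC_Os04g43800 was lost without D4_100X replicate 1 (0.114), D4_100X replicate 2 (0.076), D6_100X replicate 1 (0.179) or D6_100X replicate 2 (0.0737). In each of these cases the fold change stayed above 0.

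LOC_Os02g41680 was at 90.2 and 67.4 FPKM in D4_CK, 115 and 65.7 in D4_100X, 139 and 114 in D6_CK, and 136 and 101 in D6_100X. The D6_CK libraries exceeded both D4_CK libraries, whereas the carbon dot groups overlapped. The log2 fold change was 0.68 ± 0.29 (limma adjusted p = 0.19) in the controls and 0.42 ± 0.29 (adjusted p = 0.316) with carbon dots. LOC_Os02g41650 had fold changes of 0.03 ± 0.17 and -0.21 ± 0.17, and LOC_Os05g25640 of -0.12 ± 0.15 and -0.39 ± 0.15, none of which passed. The interval of LOC_Os05g25640 with carbon dots ran from -0.75 to -0.04 (adjusted p = 0.0889). It passed without D4_100X replicate 2 (-0.59, adjusted p = 0.0282) and with a replicate term within D4 only (-0.54, adjusted p = 0.00591), in a range of 0.00591 to 0.304 over all alternatives.

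Counted by overlap of the groups, 5 members had D6_CK above D4_CK and 2 below, where 25.4% and 34.1% of all tested loci did so. With carbon dots 3 members lay above and 2 below, against 31.1% and 36.9% of loci. The median member log2 fold change was 0.68 in the controls and 0.11 with carbon dots, and that of all loci was -0.05 and -0.04. The comparisons share no library but were fitted with 1 common estimate of spread.

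**Figure D3:**
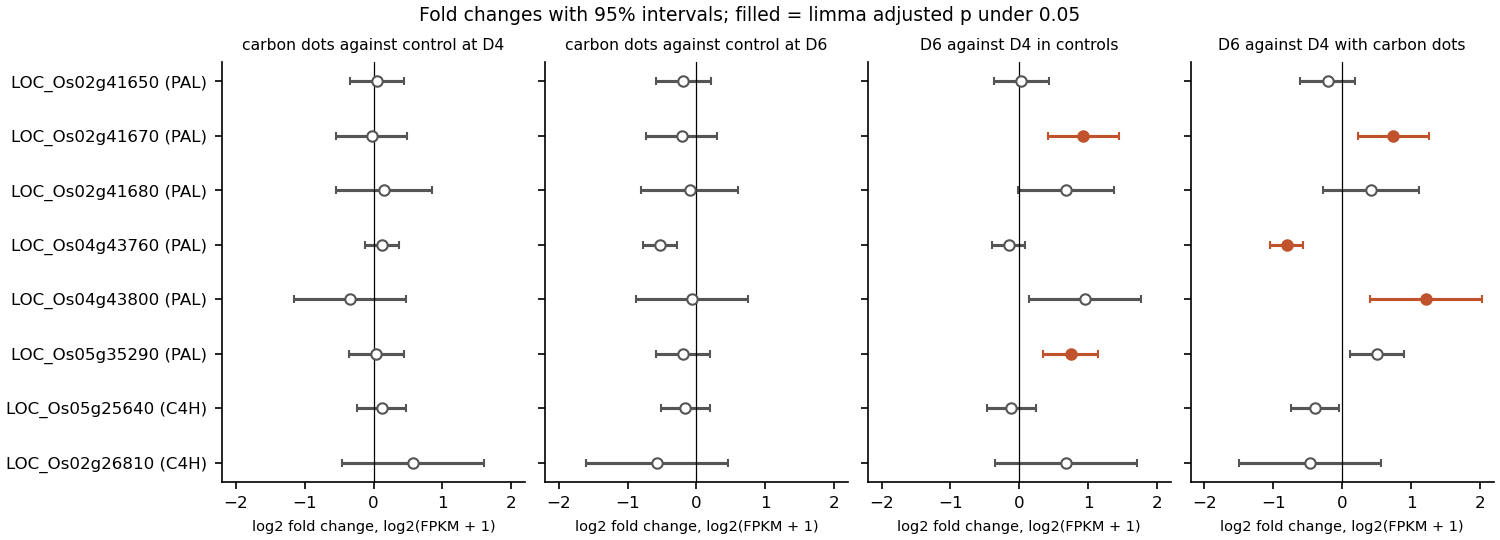
Log2 fold change with its 95% interval for 8 members in 4 comparisons, on the log2(FPKM + 1) scale, with filled points for a limma adjusted p under 0.05. Filled points stand at LOC_Os02g41670 and LOC_Os05g35290 in the controls and at LOC_Os02g41670, LOC_Os04g43760 and LOC_Os04g43800 with carbon dots, and none in the 2 comparisons of carbon dots with control.

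The make-up of the PAL pool was set beside its size. Summed over the 6 variable PAL loci, the level was 866 and 898 FPKM in D4_CK, 984 and 880 in D4_100X, 1082 and 962 in D6_CK, and 986 and 756 in D6_100X. The sums of the groups overlapped except for D4_CK and D6_CK. LOC_Os02g41650 supplied 49.8% ± 0.168 (SD, n = 2) of this sum in D4_CK and 43.9% ± 0.605 in D6_CK, and 48.8% ± 1.35 and 45.5% ± 1.14 with carbon dots. The share of LOC_Os04g43760 was 25.0% ± 1.25 in D4_CK and 19.5% ± 2.24 in D6_CK, and 26.0% ± 2.80 in D4_100X and 16% ± 1.88 in D6_100X. That of LOC_Os05g35290 was 13.2% ± 1.17 and 19.2% ± 1.32 in the controls, and 12.9% ± 1.43 and 19.8% ± 0.164 with carbon dots. LOC_Os05g35290 was below LOC_Os04g43760 in all 4 D4 libraries, with ratios from 0.497 to 0.542, and above it in every D6 library other than D6_CK replicate 2, with ratios of 1.12, 1.34 and 1.15 against 0.867. Shares and sums were not tested, and LOC_Os02g41630, which would be the largest part, is not in them.

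**Figure D4:**
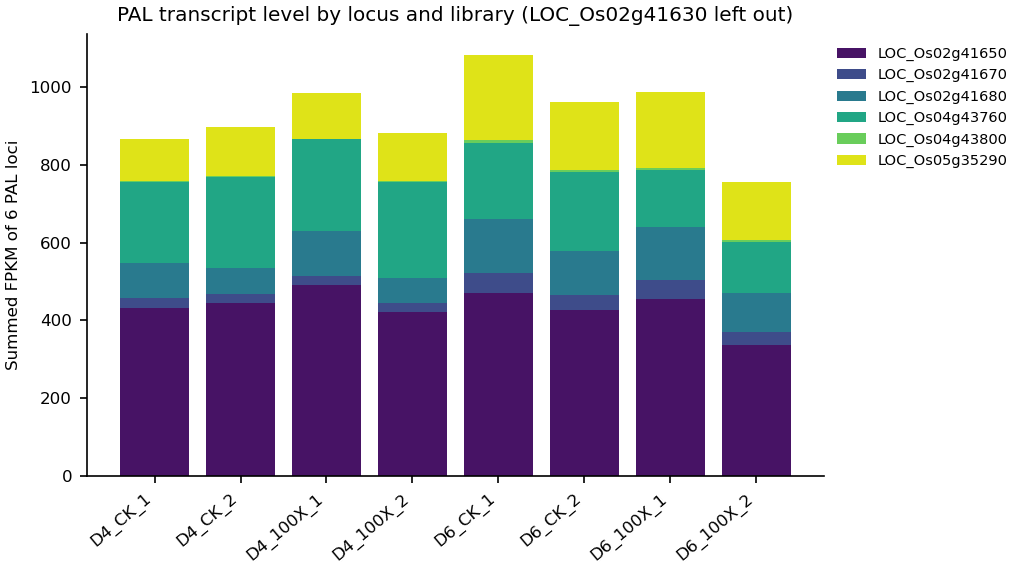
Stacked bars of FPKM for the 6 PAL loci whose values differ between libraries, from 0, in each of the 8 libraries. Totals run from 756 FPKM in D6_100X replicate 2 to 1082 FPKM in D6_CK replicate 1, and the LOC_Os04g43760 segment is smallest in the D6_100X libraries.

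Carbon dots were then compared with control at D6, the comparison that asks whether priming altered the entry step. No member passed the limma threshold, where 0.522% of all tested loci did (0.404% higher and 0.118% lower), and 1 member was under 0.05 unadjusted, against 15.8% of loci. This was LOC_Os04g43760, with 144 and 131 FPKM against 194 and 203 in the controls. Both carbon dot libraries were below both controls, and the log2 fold change was -0.53 ± 0.10 (95% interval -0.77 to -0.28, limma adjusted p = 0.0894). It passed when only the D6 libraries were fitted (adjusted p = 0.0491) and with a replicate term within D4 only, a setting chosen after the data were seen (0.0225), while over all alternatives reported the adjusted p ranged from 0.0225 to 0.45. The summed level of the 4 root marker loci was 1760 to 2334 FPKM in D6_100X, 2844 to 2852 in D6_CK, 3092 to 4494 in D4_100X and 3158 to 4002 in D4_CK. LOC_Os02g44310 carried this order, at 981 and 1172 FPKM in D6_100X against 1894 and 1894 in D6_CK. The markers did not move together. LOC_Os02g37190 was higher in D6_100X (25.4 and 20.01 FPKM against 5.51 and 12.4), and NIP2-1 and Lsi2 overlapped between the D6 groups. The markers other than LOC_Os02g44310 were higher in all D6 than in all D4 libraries. NIP2-1 was at 175 to 296 FPKM at D4 and 584 to 805 at D6, and Lsi2 at 89.9 to 157 and 170 to 337. LOC_Os02g37190 was at 0.393 to 1.01 FPKM at D4 and 5.51 to 25.4 at D6. The part of these loci in the D6_100X results was not tested.

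All 8 members had a log2 fold change below 0 at D6, with a median of -0.19, where 53.3% of all loci were below 0 and their median was -0.02. The groups did not overlap for 3 members, LOC_Os04g43760 and the C4H loci LOC_Os05g25640 and LOC_Os02g26810, all lower with carbon dots, and 30.5% of loci did the same, with 26.8% higher. Without D6_100X replicate 2 the fold changes of LOC_Os02g41650, LOC_Os02g41670, LOC_Os02g41680 and LOC_Os04g43800 were above 0, at 0.03, 0.08, 0.12 and 0.19. Leaving out the control library D6_CK replicate 1 instead put LOC_Os02g41680 and LOC_Os04g43800 above 0, at 0.04 and 0.38. LOC_Os05g25640 had a log2 fold change of -0.16 ± 0.15 (95% interval -0.51 to 0.19). LOC_Os02g26810 was at 9.70 and 10.2 FPKM against 13.8 and 16.8, a log2 fold change of -0.57 ± 0.43 (95% interval -1.60 to 0.46). For the remaining PAL loci the fold changes ran from -0.21 for LOC_Os02g41670 to -0.07 for LOC_Os04g43800. Every interval but that of LOC_Os04g43760 included 0, and the widest of the PAL intervals, from -0.88 to 0.75 for LOC_Os04g43800, leaves room for changes in either direction.

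At D4 no member passed, nor did any of the tested loci (0%), with 0 members and 1.9% of all loci under 0.05 unadjusted by limma. The fold changes ran from -0.34 for LOC_Os04g43800 to 0.58 for LOC_Os02g26810, with a median of 0.08. LOC_Os04g43760 was the single member whose groups did not overlap, higher with carbon dots by 0.13 ± 0.10 (95% interval -0.12 to 0.37), where 8.7% of loci were higher and 10.7% lower without overlap.

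The D4 libraries also differed by replicate number. The differences between replicate 1 and replicate 2 correlated at 0.602 across 22794 loci between D4_CK and D4_100X, and at -0.112 between the D6 groups. Both values run over genes, and genes are not independent samples. The second C4H locus, LOC_Os02g26810, stood at 24.4 FPKM in D4_100X replicate 1 and at 7.99 in D4_100X replicate 2, with 8.03 and 10.4 in D4_CK. The same library held CCR1, a cinnamoyl-CoA reductase gene of lignin synthesis, at 19.4 FPKM, with 0.697 to 6.64 in the other 7. Without that library the fold change of LOC_Os02g26810 at D4 was -0.17, and the part of the library in the value was not tested. Its D6 against D4 fold change with carbon dots was -0.46 ± 0.43 with all libraries, 0.28 without D4_100X replicate 1 and -1.21 without D4_100X replicate 2, the last with an adjusted p of 0.0101 in a range of 0.0101 to 0.651. Its fold change in the controls, 0.68 ± 0.43 (adjusted p = 0.36), passed without either D4_100X library (0.0424 and 0.0412), which are not in that comparison but enter the common estimate of spread.

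No member passed the test of the difference between the effects at D6 and D4, with 0.00877% of loci called (0.00439% in each direction) and 1 member against 9.27% of loci under 0.05 unadjusted by limma. LOC_Os04g43760 came nearest, at -0.65 ± 0.14 (95% interval -0.997 to -0.31, adjusted p = 0.296).

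Other genes of the pathway were taken from a list of 25 loci, 21 of which were tested. The list holds 3 further PAL or C4H loci that are not members. Only 1 of these was tested, LOC_Os02g26770, which lay between 1.62 and 4.52 FPKM and was called in no comparison. Carbon dots against control gave 0 calls at D4 and 1 at D6, where 0% and 0.522% of all tested loci were called. At D6 the median log2 fold change was -0.18 with 16 of 21 below 0, against a median of -0.02 and 53.3% below 0 over all loci. Of the 7 later monolignol loci of the list, 4 were above 0, with a median of 0.01, and 0 were called. A difference between parts of the list was not tested. The call at D6 was CHI, the chalcone isomerase gene of flavonoid synthesis, which fell to 162 ± 5.64 FPKM from 286 ± 17.9 (-0.82 ± 0.10, limma adjusted p = 0.0419). The CHI call was lost without any 1 of the D4_CK, D6_CK and D6_100X libraries. It was also lost without a filter (limma adjusted p = 0.0715), with a replicate block (0.0603) and with a pseudocount of 0.1 (0.055). The fold change of CHI stayed below 0 in each of these. The ligase that follows C4H showed no call at D6. 4CL3, the most abundant of the 4 tested 4CL genes, was at 385 and 325 FPKM against 461 and 443 (-0.35 ± 0.18, adjusted p = 0.394), and 4CL5 at 24.6 and 20.8 against 37.4 and 29.9 (-0.54 ± 0.15, adjusted p = 0.165).

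Between D4 and D6, 2 pathway loci rose and 1 fell in the controls, and 2 rose and 9 fell with carbon dots. Over all tested loci 5.42% rose and 4.72% fell in the controls, and 14.5% and 15.3% with carbon dots. CHS1, the chalcone synthase gene at the entry to flavonoids, fell from 18.7 ± 12.7 to 3.11 ± 0.325 FPKM in the controls. Its log2 fold change was -2.10 ± 0.51 (limma adjusted p = 0.0481). This call was lost without D4_CK replicate 1 or any D6 library. It was also lost without a filter (0.095), when only the groups compared were fitted (0.0677) and with robust eBayes (0.0507). CHS1 was also called lower with carbon dots, from 21.7 ± 9.01 to 2.47 ± 1.30 FPKM (-2.70 ± 0.51, limma adjusted p = 0.00961). The carbon dot call of CHS1 was lost without D6_100X replicate 2, where the fold change was -2.31. With carbon dots the genes that fell included 4CL4 (-0.51 ± 0.09, adjusted p = 0.00931) and CAD2, a cinnamyl alcohol dehydrogenase gene (-0.49 ± 0.11, adjusted p = 0.0171). LOC_Os01g55870, from the phenylalanine supply part of the list (-0.84 ± 0.13, limma adjusted p = 0.0045), and CHI (-0.63 ± 0.10, 0.00658) fell too. The LOC_Os01g55870 call held under all 17 alternative settings, and the CHI call was lost without D6_100X replicate 2. The 4CL4 call was lost without D6_100X replicate 2. The CAD2 call was lost without D4_100X replicate 1 or either D6_100X library. It was also lost when only the groups compared were fitted (limma adjusted p = 0.0655). The rising loci were the same pair in both comparisons, LOC_Os10g36848 from the monolignol part of the list and LOC_Os02g41510 from its MYB factors, whose symbols were not matched. LOC_Os02g41510 was at 2.92 ± 0.504 FPKM in D4_CK and 9.46 ± 1.16 in D6_CK, and at 3.44 ± 1.54 and 11.6 ± 2.64 with carbon dots. In the controls its call was lost without any 1 of the D4_CK and D6_CK libraries, and without a filter (limma adjusted p = 0.0553). The control call of LOC_Os10g36848 was lost without D4_CK replicate 1 or either D6_CK library. With carbon dots LOC_Os02g41510 was lost without D6_100X replicate 1 (0.0528).

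**Figure D5:**
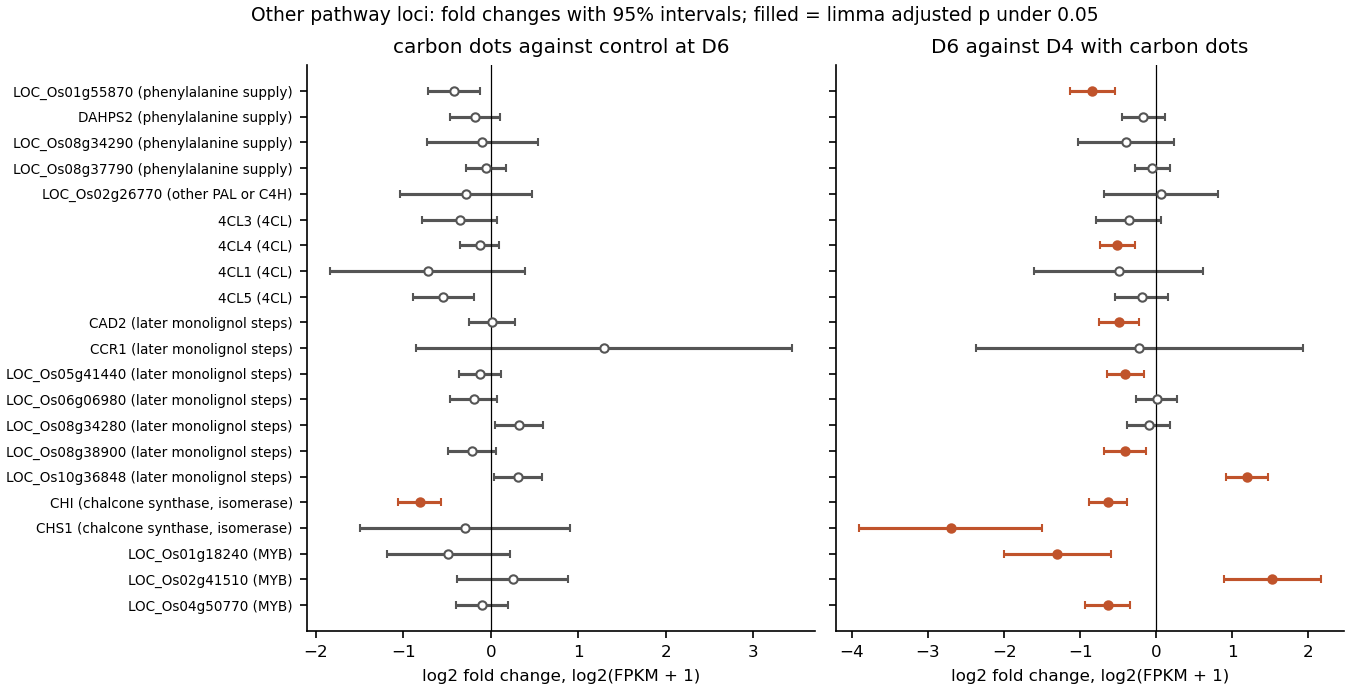
Log2 fold change with its 95% interval for the 21 tested pathway loci, at the left for carbon dots against control at D6 and at the right for D6 against D4 with carbon dots, with filled points for a limma adjusted p under 0.05. Labels give the matched symbol or the identifier and the part of the list. At the left CHI alone is filled, and at the right 2 loci are filled above 0 and 9 below.

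The profiles most like those of the main members were sought among 15055 loci with a mean of at least 5 FPKM, by the root mean square difference of log2(FPKM + 1) profiles centred on their own mean over 8 libraries. The closest to LOC_Os02g41650 was DAHPS2, which encodes DAHP synthase, the enzyme at the start of the shikimate pathway that makes phenylalanine, with a difference of 0.0600 against a spread of 0.151 for LOC_Os02g41650 itself. DAHPS2 ranged from 234 to 302 FPKM, lowest in D6_100X replicate 2. LOC_Os04g20164 followed at 0.0642, nearly as close. LOC_Os02g41650 was also lowest in D6_100X replicate 2, and a link between these genes was not tested. The closest to LOC_Os05g25640 was LOC_Os07g48180, with a difference of 0.05 against its own spread of 0.182, followed by LOC_Os04g51570 at 0.0518. The rule would have taken LOC_Os02g41630 as the main PAL locus, and since its profile is flat, LOC_Os02g41650 was used after its values were seen.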

How the data were processed

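Poly(A) RNA of 8 root libraries was measured by RNA-seq. The submitters' processing notes name featureCounts 1.6.4, HISAT2, fastp and SAMtools, with settings, build and annotation not given in the sources used here. The deposited values are FPKM per locus and library, as computed by the authors. Gene lengths and whole-number values were recovered from the FPKM steps (tolerance 0.005), which showed a distribution common to all libraries. They are not raw reads. A planned limma voom fit on them was run before this was known and set aside once its calls had been seen, and no value of it is used. Depth, counting intervals and floors are therefore not given.

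Loci with at least 1 FPKM in at least 2 libraries (22794) were tested on log2(FPKM + 1), a scale that understates changes of low genes, with limma 3.58.1 in R 4.3.3 (4 group means, eBayes with trend, 4 residual degrees of freedom, two-sided, Benjamini-Hochberg over all tested loci, threshold 0.05). The fit was also run on simulated data drawn independently for each locus and library. These data lacked the common distribution and the replicate correlation of the deposited libraries, so that run cannot check the fit under them. With 2 libraries against 2, no exact permutation test of a single locus could pass, and none was run. All 10 members were to be described. Members and lists were chosen with earlier results of these data known. The pathway list came from published identifiers recalled without a source at hand, and 1 further locus of it is not reported here. Symbols were matched for 10 of its 25 loci, where a RefSeq gene (ASM3414082v1) of that symbol lies at a relative chromosome position within 0.1 of the one its identifier implies. Alternatives were another pseudocount, other filters, the libraries fitted, a replicate block, robust eBayes and median centring, and, chosen after seeing the data, a replicate term within D4 only and a fit without LOC_Os02g41630.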

Additional observations from a re-analysis of the deposited data

Results flagged for a closer look

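LOC_Os04g43760, a PAL locus, lay on opposite sides of the controls at D4 and at D6. Both carbon dot libraries were above both controls at D4 (236 and 246 against 209 and 233 FPKM) and below both at D6 (144 and 131 against 194 and 203 FPKM). The difference of the log2 fold changes was -0.65 ± 0.14, with a limma adjusted p of 0.296, so it did not pass over all loci. Of the 22794 tested loci 451 (1.98%) showed the same pattern, higher without overlap at D4 and lower without overlap at D6. Groups of 2 libraries allow no check for single outlying libraries.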

How the results depend on the processing

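The count of members past the threshold in D6 against D4 was 2 in the controls and 3 with carbon dots. It was 0 and 1 without a filter, 1 in the controls when only the groups compared were fitted, and 0 to 3 in the controls and 1 to 3 with carbon dots when 1 library was left out. With the replicate term within D4 only it was 4 with carbon dots, LOC_Os05g25640 (adjusted p = 0.00591) and LOC_Os05g35290 (0.0382) being gained and LOC_Os02g41670 (0.0683) lost. For carbon dots against control at D6 it was 0, and 1 when only the groups compared were fitted or with a replicate term within D4 only. It was 0 at D4 and for the difference between D6 and D4 under every setting run, including 0 to 0 with 1 library left out. The labels do not say whether replicate numbers pair the samples. The replicate block gave 3 members in the controls, LOC_Os02g41680 being added (adjusted p = 0.0326, range 0.0326 to 0.558), and 3 with carbon dots. Of 675 single-locus values under alternatives 618 kept direction and side, 26 lost and 9 gained the threshold, and 22 changed sign, 0 of them for a called value. The sign change outside the left-out libraries was LOC_Os02g41650 in the controls (-0.0146 with the replicate term within D4 only). With 1 library left out, log2 fold changes for D6 against D4 in the controls that changed sign ran from -0.0425 to 0.0989 (LOC_Os02g41650). With 1 library left out, log2 fold changes for D6 against D4 with carbon dots that changed sign ran from -1.2142 to 0.2847 (LOC_Os02g26810) and -0.4282 to 0.0054 (LOC_Os02g41650). With 1 library left out, log2 fold changes for carbon dots at D4 that changed sign ran from -0.1737 to 1.3252 (LOC_Os02g26810), -0.0578 to 0.1590 (LOC_Os02g41650), -0.1116 to 0.0609 (LOC_Os02g41670), -0.2429 to 0.5568 (LOC_Os02g41680), -0.0752 to 0.3120 (LOC_Os05g25640) and -0.0725 to 0.1590 (LOC_Os05g35290). With 1 library left out, log2 fold changes for carbon dots at D6 that changed sign ran from -0.4058 to 0.0278 (LOC_Os02g41650), -0.5060 to 0.0794 (LOC_Os02g41670), -0.3157 to 0.1170 (LOC_Os02g41680) and -0.5156 to 0.3823 (LOC_Os04g43800). With 1 library left out, log2 fold changes for the difference between D6 and D4 that changed sign ran from -0.4807 to 0.1048 (LOC_Os02g41670), -0.6561 to 0.1436 (LOC_Os02g41680) and -0.1802 to 0.7176 (LOC_Os04g43800). The cause was not tested. The planned limma voom fit on recovered reads was tried once and then set aside, after its calls had been seen, because the whole numbers share 1 distribution and are not raw reads. Its values are not given. Over all loci the calls ranged from 60 to 4810 in the controls (2311 as reported), from 2862 to 8692 with carbon dots (6789), from 0 to 1400 at D6 (119), from 0 to 2 at D4 (0) and from 0 to 100 for the difference (2).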
